A study of Mus musculus with 23 samples.

Results

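The potassium and pacemaker channel subunits of the mouse left ventricle were followed as a family of 53 genes, out of 49315 genes counted. A gene belonged to it when its name in either of the authors' deposited tables of differential expression began with Kcn, or with Hcn followed by a digit. The transcripts Kcnd3os and Kcnq1ot1, which run antisense to channel genes, were left out. A further 45 protein-coding genes with such names, all in neither table and all under 20 counts in each library, were not followed. All 53 genes passed the filter on low counts, and 22 of them, from the core genes of ventricular potassium and pacemaker current and the genes that passed a test, are described one by one.

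The RNA was from left ventricles of FVB mice, an inbred strain, sequenced in 23 libraries. The mice breathed aerosol of the e-cigarette vehicle with nicotine, aerosol of the vehicle alone, or filtered air for 4 h daily, 5 days weekly, during 3 months, and began at an age of 3 months or 3 weeks. In the 3-month start there were 4 nicotine, 4 vehicle and 4 air libraries, and in the 3-week start 4 nicotine, 3 vehicle and 4 air libraries. Each library held 12297955 to 17821550 gene counts, and Myl2, Myh6 and the other ventricular cardiomyocyte markers were at high level in all of them, with the atrial marker Myl7 at 0 to 68.2 CPM (gene counts scaled to the same total in each library). The comparisons ask what either aerosol does to ventricular transcripts and whether the starting age matters. The age at which exposure began and the age at which it ended cannot be told apart, and no sex, dose or batch is given. The labels do not tie the libraries to separate animals, so p-values reflect only how much these samples vary, and that variation may be technical.

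Potassium channels repolarise the cardiac action potential and set the resting potential. In the mouse ventricle the early repolarising currents run through the pore subunits Kcnd2 and Kcnd3 with their calcium-sensing partner Kcnip2, and another runs through Kcna5. Inward rectifiers such as Kcnj2 and Kcnj12 hold the resting potential, Kcnj11 forms the pore that opens when cellular ATP falls, and Kcnj3 with Kcnj5 forms the channel opened by acetylcholine. The Hcn genes encode channels opened by hyperpolarisation and modulated by cyclic AMP, which carry the pacemaker current of the sinoatrial node. In bulk tissue, fewer cells of a type and less RNA per cell cannot be told apart.

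The 250 bases before the RefSeq start are shown for the 4 genes that passed the test in more than 1 comparison of the 3-month start, stood above 1 CPM per exonic kilobase in 3-month air, had a window in the RefSeq table and shared no base of it with an annotated exon. They are from the mouse build GRCm38.p6, read 5′ to 3′ on the strand of the gene, at chr10:79716384-79716633 (plus) for Hcn2, chr9:58822699-58822948 (plus) for Hcn4, chr5:24329592-24329841 (minus) for Kcnh2 and chr11:61065554-61065803 (plus) for Kcnj12. Capitals mark GC boxes, GGGCGG or the same letters on the other strand, the short element bound by Sp-type factors.
Hcn2: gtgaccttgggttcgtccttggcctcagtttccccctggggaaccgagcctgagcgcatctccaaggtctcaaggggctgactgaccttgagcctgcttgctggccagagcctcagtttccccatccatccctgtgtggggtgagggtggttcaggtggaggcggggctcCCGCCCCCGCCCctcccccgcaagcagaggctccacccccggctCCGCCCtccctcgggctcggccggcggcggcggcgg
Hcn4: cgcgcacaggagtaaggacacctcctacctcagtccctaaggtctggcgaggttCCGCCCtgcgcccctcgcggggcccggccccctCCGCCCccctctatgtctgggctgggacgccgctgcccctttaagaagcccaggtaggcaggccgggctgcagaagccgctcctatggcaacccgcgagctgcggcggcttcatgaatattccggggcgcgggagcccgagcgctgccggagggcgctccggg
Kcnh2: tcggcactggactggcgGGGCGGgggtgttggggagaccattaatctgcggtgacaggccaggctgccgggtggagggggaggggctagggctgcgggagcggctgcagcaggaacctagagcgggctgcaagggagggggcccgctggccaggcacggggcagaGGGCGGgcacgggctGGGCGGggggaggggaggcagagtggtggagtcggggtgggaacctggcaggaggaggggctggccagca
Kcnj12: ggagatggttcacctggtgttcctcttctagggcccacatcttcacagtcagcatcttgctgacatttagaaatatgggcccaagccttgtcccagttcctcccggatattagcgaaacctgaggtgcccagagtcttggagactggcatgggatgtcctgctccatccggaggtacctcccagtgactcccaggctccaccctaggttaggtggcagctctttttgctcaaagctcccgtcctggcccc
The windows of Hcn2, Hcn4 and Kcnh2 held 3, 2 and 3 GC boxes at a GC content of 70.4, 71.2 and 73.6%, and that of Kcnj12 held 0 at 56.0%. A GC box was found in 32.7% of the 32851 windows of the table and in 21 of the 49 windows that 36 of the family had. The median GC content was 60.4% over the family's windows and 52.4% over all windows. The letters TATAAA (12.4% of all windows), the muscle MEF2 site, CTA and TAG with any 4 bases between (3.2%) and the GATA site AGATAA (9.99%), searched on both strands, were found in 0, 0 and 1 of the 49, and in 0 of the 4 shown. The RefSeq starts of Kcnh2 and Kcnj12 lie inside the span of the gene in the other annotation used, so the annotations differ in where these genes start. These matches describe the letters only.

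Of the family, a few genes held most of the transcript. In 3-month air, the level per exonic kilobase was led by Kcnk3, a leak channel that is closed by acid, at 106 ± 15.1 CPM per kb (mean ± SD, n = 4). Kcnip2, the auxiliary subunit of the fast transient outward channel, followed at 92.2 ± 5.10 CPM per kb. Kcng2, a modifier subunit that forms no channel alone, was at 57.9 ± 9.96 CPM per kb, and Kcnj11 at 55.4 ± 5.39 CPM per kb. Kcnh2, the pore of the rapid delayed rectifier, was at 25.1 ± 2.59 CPM per kb, and Hcn2 at 22.9 ± 1.63 CPM per kb. These 6 held 74.4% ± 1.24 (SD, n = 4) of the family's summed level per kb. Kcnk3 and Kcnip2 overlapped between libraries, as did Kcng2 with Kcnj11 and Kcnh2 with Hcn2, while Kcnip2, Kcnj11 and Hcn2 each stood above the next gene in every 3-month air library. In all, 11 genes lay over 10 CPM per kb, 15 between 1 and 10, and 27 under 1, with Kcnh7 (0.0508 CPM per kb) last.

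By group mean per exonic kilobase, Kcnk3 was first in air and Kcnip2 in nicotine and vehicle. Kcnip2 was at 105 ± 6.20 CPM per kb in nicotine, 91.0 ± 5.22 in vehicle and 92.2 ± 5.10 in air, while Kcnk3 was at 103 ± 6.26 CPM per kb in nicotine, 79.7 ± 2.27 in vehicle and 106 ± 15.1 in air (n = 4 each). In vehicle, every library had Kcnip2 above every library's Kcnk3 (86.8 to 98.2 against 76.6 to 81.5 CPM per kb). In nicotine and in air their ranges overlapped, so the first place was not settled there. In CPM undivided by length, their ranges overlapped in vehicle as well.

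**Figure D1:**
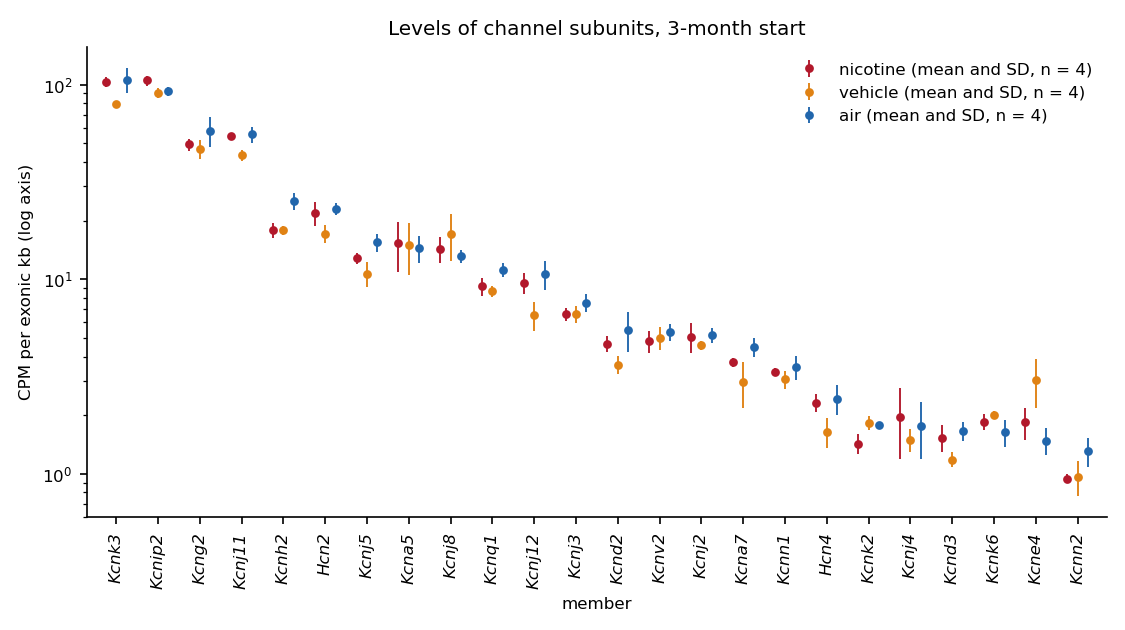
Mean level with SD, in CPM per exonic kilobase on a log axis, of 24 family genes above 1 CPM per kb in 3-month air, for nicotine, vehicle and air (4 libraries each), in the order of their level in air. Kcnk3 and Kcnip2 stand near 100 CPM per kb and the last genes near 1, and the vehicle points of Kcnk3, Kcnj11, Hcn2 and Kcnj12 sit below both others.

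After vehicle aerosol from 3 months of age, 13 of the 53 genes were lower than in air (24.5%, where 10.6% of the 15500 genes tested were lower), and 2 were higher (3.77%, where 6.77% of all genes were). The lower ones included Kcnj12, Kcna7, Kcnd2, Hcn4, Kcnj5, Kcnh2, Kcnd3, Kcnn2, Hcn2, Kcnk3, Kcnq1 and Kcnj11, with log2 fold changes of -0.70 to -0.35, and the higher ones were Kcne4 and Kcnc4. Summed over the family, vehicle libraries held 1483 to 1642 CPM and air libraries 1746 to 2122 CPM. By role, 2 pacemaker channels, 6 of 21 voltage-gated pore subunits, 3 of 9 inward rectifiers, 1 of 6 tandem pore-domain leak channels and 1 of 5 calcium- or sodium-activated pore subunits fell, with 0 of 9 auxiliary subunits. The median log2 change was -0.09 over the family and 0.02 over all genes tested. Vehicle and air libraries did not overlap in 17 of the 53 genes, 13 with vehicle below (11.6% of all genes tested were) and 4 with vehicle above (8.52% of all genes), and 13 of the 15 called genes were among these. The test was edgeR's quasi-likelihood test on the 12 libraries of the 3-month start, with Benjamini-Hochberg adjustment over all 15500 genes at a threshold of 0.05. With all 23 libraries in 1 fit, whose common coefficient of variation was 0.1785 against 0.1057 for these 12, no gene passed in edgeR (0 of 15500, 2200 at an unadjusted p under 0.05), and adjusted p for the 15 was 0.182 to 0.386.

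Against vehicle alone, 5 of the 53 genes were higher in nicotine (9.43%, where 9.7% of all genes were) and 3 were lower (5.66%, where 5.5% were), shares close to those of all genes. Hcn2, Hcn4, Kcnj11, Kcnj12 and Kcnk3 rose, and Kcne4, Kcnc4 and the stretch-sensitive leak channel Kcnk2 fell. The vehicle libraries are shared by this comparison and the one of vehicle with air, so the opposite signs are not independent of each other. Nicotine libraries lay above all vehicle libraries in 7 of the 53 genes (12.2% of all genes tested did) and below them in 3 (6.66% of all genes). With all 23 libraries in 1 fit, edgeR called 0 genes (1887 at an unadjusted p under 0.05) and adjusted p for the 8 was 0.398 to 0.424, while DESeq2 on these 12 libraries called 10 of the family, 8 higher and 2 lower, and over all genes 1706 higher and 956 lower, against 1503 and 852 by edgeR. Without nicotine library 2, vehicle library 2 or vehicle library 3, 4 of the family passed, and without nicotine library 4, 5 did, against 8 with all. The calls over all genes also fell, in that order to 1140, 907, 954 and 967 higher and 517, 333, 589 and 373 lower.

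Against air, nicotine aerosol left 1 family gene past the threshold, Kcnh2, which was lower (1 of 53, 1.89%, where 0.0194% of all genes were lower, 0.0258% higher and 0.0452% either). None was higher, and 10 family genes and 965 of all genes had an unadjusted p under 0.05. DESeq2 also called Kcnh2 alone of the family, where it called 27 of all genes higher and 14 lower.

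**Figure D2:**
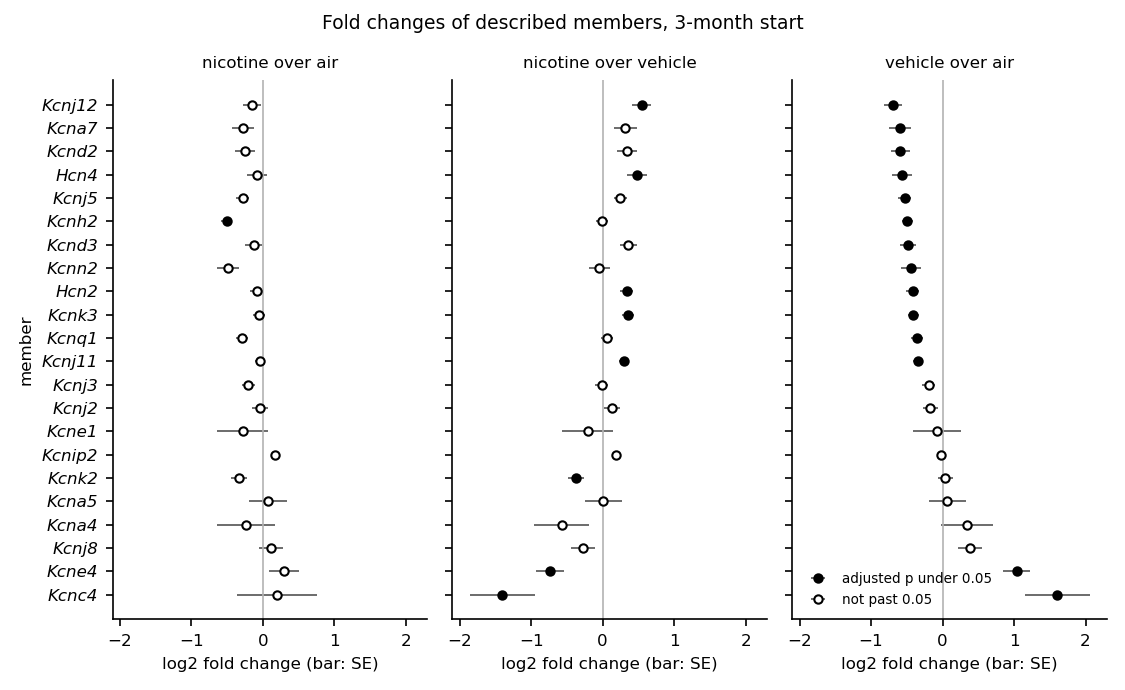
Log2 fold change with SE of the 22 genes described one by one, in the 3-month start, for nicotine over air, nicotine over vehicle and vehicle over air; filled points have an adjusted p under 0.05 (edgeR). The vehicle-over-air panel holds 12 filled points below 0, Kcnj12 lowest at -0.70, and the nicotine-over-air panel a single one, Kcnh2 at -0.50.

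Among the pacemaker channels, Hcn2, the form most abundant in ventricle, had 66.9, 84.1, 62.6 and 65.5 CPM in nicotine libraries, 56.0, 48.1, 52.8 and 61.7 CPM in vehicle libraries, and 72.0, 78.7, 66.7 and 75.8 CPM in air libraries. Vehicle stood below both other groups without overlap. It was lower in vehicle than in air by a log2 change of -0.42 ± 0.09 (SE; edgeR adjusted p = 0.00623) and higher in nicotine than in vehicle by 0.34 ± 0.09 (0.0226). Hcn4, the main pacemaker channel of the sinoatrial node, had 12, 15.5, 15.1 and 14.2 CPM in nicotine, 12.2, 7.97, 9.53 and 10.4 CPM in vehicle, and 12.8, 18.6, 13.6 and 14.5 CPM in air. Vehicle lay below air in every library, and its library 1 overlapped the lowest nicotine library. The changes of Hcn4 were -0.57 ± 0.14 for vehicle over air (adjusted p = 0.0093) and 0.48 ± 0.14 for nicotine over vehicle (0.0243). Nicotine and air did not differ past the threshold in Hcn2 (-0.08 ± 0.09) or Hcn4 (-0.08 ± 0.13). The nicotine-over-vehicle call of Hcn2 ended without nicotine library 2 (adjusted p = 0.0936), vehicle library 2 (0.0915) or vehicle library 3 (0.0778). That of Hcn4 ended without nicotine library 2 (0.0745), 3 (0.0738) or 4 (0.0551), or vehicle library 2 (0.0942) or 3 (0.0757). With a term per replicate number in the fit, Hcn2 and Hcn4 passed neither for vehicle over air nor for nicotine over vehicle.

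The conduction system markers fixed for comparison (8 genes, among them the nodal factor Tbx3) summed to 128 to 144 CPM in nicotine, 127 to 145 in vehicle and 122 to 143 in air, and 0 of the 6 tested passed between vehicle and air in edgeR, with Cntn2 alone at an unadjusted p under 0.05 (0.0174). Tbx3 was at 0.13 ± 0.16 (adjusted p = 0.626) in that comparison, beside the -0.57 of Hcn4. For nicotine over vehicle, 1 of the 6 passed in edgeR, Cntn2, which was higher, where 9.7% of all genes were higher.

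**Figure D3:**
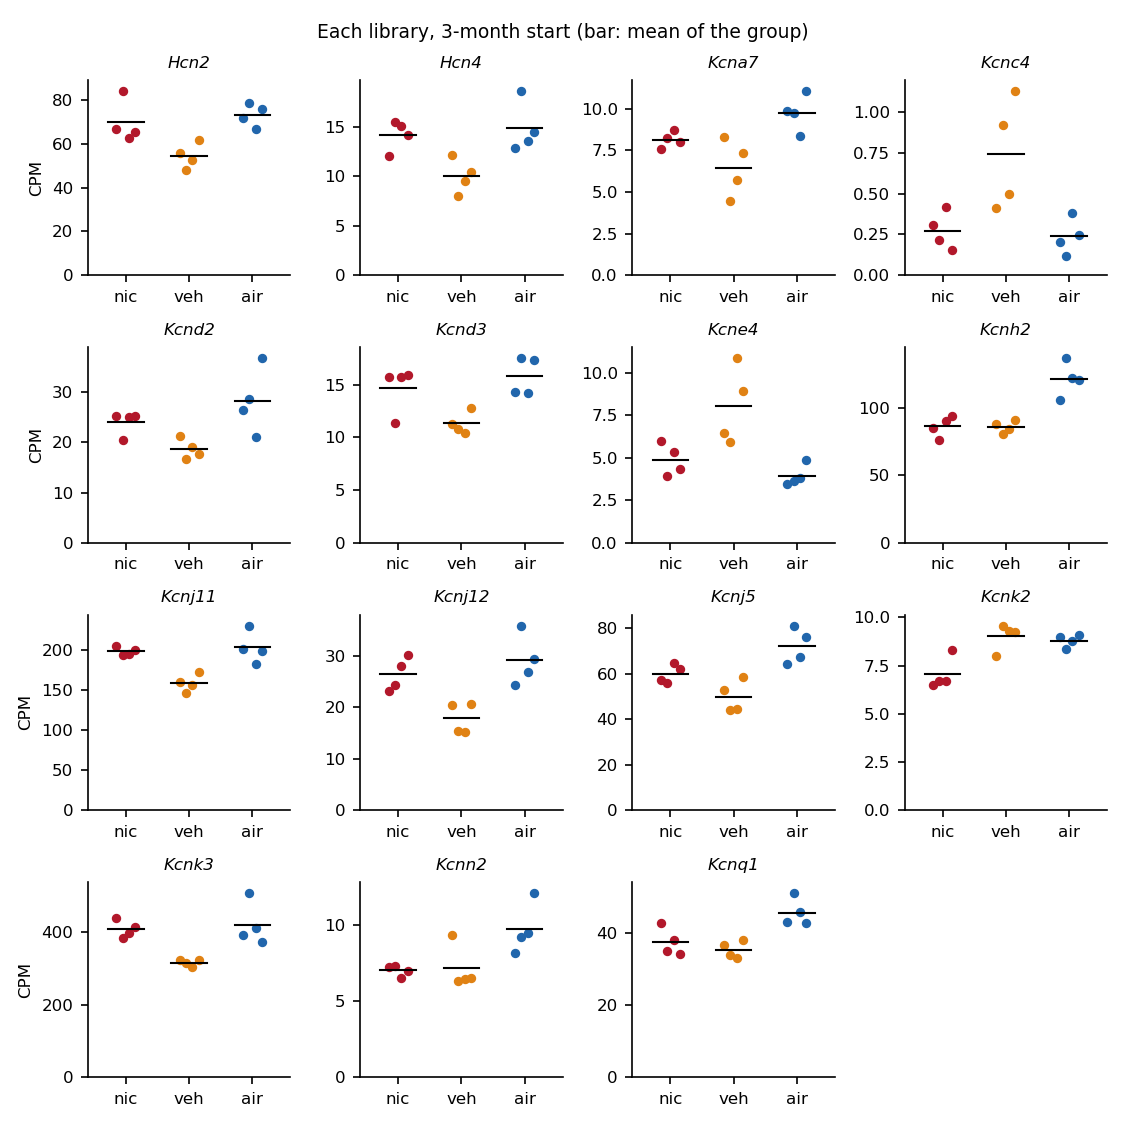
CPM of each 3-month library for 15 family genes called in at least 1 comparison; points are libraries in nicotine (nic), vehicle (veh) and air, and the bar is the group mean. Vehicle sits lowest in Hcn2, Hcn4, Kcnj11, Kcnj12 and Kcnk3 and highest in Kcne4 and Kcnc4, while Kcnh2 has nicotine and vehicle together below air.

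Of the subunits behind the transient outward current, the pores fell with vehicle and the auxiliary subunit did not pass. Kcnd2 had 25.2, 20.5, 25.1 and 25.3 CPM in nicotine, 21.2, 16.7, 19.1 and 17.8 CPM in vehicle, and 26.5, 28.6, 21.0 and 36.7 CPM in air. Air library 4 overlapped the highest vehicle library, and the other air libraries stood above all of vehicle. It changed by -0.59 ± 0.14 (adjusted p = 0.00863) for vehicle over air. Kcnd3 had 15.8, 11.3, 15.8 and 15.9 CPM in nicotine, 11.3, 10.8, 10.5 and 12.8 CPM in vehicle, and 14.3, 17.5, 14.3 and 17.4 CPM in air. All vehicle libraries lay below all air libraries, a change of -0.48 ± 0.12 (adjusted p = 0.00975), and nicotine over vehicle was at 0.36 ± 0.12 (0.0502). Kcnip2 had 395, 366, 344 and 356 CPM in nicotine, 318, 302, 304 and 341 CPM in vehicle, and 326, 341, 299 and 316 CPM in air. Nicotine lay above both others in every library, yet passed neither test (0.19 ± 0.06 over vehicle, adjusted p = 0.0503; 0.18 ± 0.06 over air, 0.647), and vehicle over air was -0.02 ± 0.06 (0.889). With RLE in place of TMM scaling, Kcnip2 and Kcnd3 passed for nicotine over vehicle. Kcna4, the pore of the slow transient outward current, stayed under 1 CPM in all 12 libraries.

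Of the Kcna pores at higher level, Kcna7 fell with vehicle and Kcna5 did not pass. Kcna5, the pore of the ultrarapid current, spread over 25.6 to 53.0 CPM in nicotine, 28.8 to 58.8 in vehicle and 34.8 to 50.05 in air, and passed no test (vehicle over air 0.06 ± 0.26, adjusted p = 0.894). Kcna7, a pore of the same subfamily found in muscle, had 7.58, 8.27, 8.71 and 8.01 CPM in nicotine, 8.30, 4.48, 5.73 and 7.32 CPM in vehicle, and 9.87, 9.74, 8.40 and 11.1 CPM in air. Vehicle lay just below air without overlap, a change of -0.59 ± 0.16 (adjusted p = 0.0143), which did not pass without air library 5 (0.0602), vehicle library 2 (0.0509) or vehicle library 3 (0.0555). Kcng2, the modifier subunit, was at -0.30 ± 0.10 for vehicle over air (0.0517) and overlapped.

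Kcnh2, the pore of the rapid delayed rectifier whose loss in people causes a long QT syndrome, was the only family gene that passed as lower than air in both aerosol groups. It had 85.4, 76.3, 90.8 and 94.0 CPM in nicotine, 88.0, 80.8, 84.7 and 91.3 CPM in vehicle, and 106, 137, 122 and 121 CPM in air. All 8 exposed libraries were below all 4 air libraries. The changes were -0.50 ± 0.08 for nicotine over air (adjusted p = 0.0193) and -0.49 ± 0.08 for vehicle over air (0.00102), which share the air libraries, and -0.01 ± 0.08 for nicotine over vehicle (0.959). In the authors' deposited table for nicotine against air, the log2 fold change of Kcnh2 was -0.50 with an adjusted p of 0.000146, the only family gene of the 48 listed there under 0.05 (0.3073% of the 13991 genes of that table were). The vehicle call held without any single library (0.00113 to 0.00815). The nicotine call did not, with an adjusted p of 0.0682, 0.181 or 0.0641 without air library 2, 4 or 5, 0.0583 or 0.0927 without nicotine library 1 or 2, 0.0717 with only the nicotine and air libraries fitted, and 1 with all 23, at a log2 change of -0.56 to -0.45 throughout. Kcnq1, the pore of the slow delayed rectifier, had 42.9, 35.0, 38.0 and 34.4 CPM in nicotine, 36.9, 34.0, 33.1 and 38.0 CPM in vehicle, and 43.0, 51.1, 45.9 and 43.0 CPM in air. Both aerosol groups lay below air, and only vehicle passed (-0.36 ± 0.08, adjusted p = 0.00735; nicotine -0.30 ± 0.08, 0.361). The difference between these 2 effects on Kcnq1 was the nicotine-over-vehicle value, 0.07 ± 0.08 (0.65). Its auxiliary subunit Kcne1 was at 0.415 to 1.5 CPM in all 12 libraries and passed no test.

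The higher genes of vehicle were both of low level. Kcne4, an auxiliary subunit that restrains several voltage-gated pores, had 5.96, 3.92, 5.32 and 4.35 CPM in nicotine, 6.48, 5.95, 10.8 and 8.95 CPM in vehicle, and 3.43, 3.65, 3.79 and 4.85 CPM in air. Every vehicle library was above every air library, a 2.05-fold difference (log2 1.03 ± 0.19, adjusted p = 0.00246), and vehicle overlapped nicotine only at its lowest library. Nicotine over vehicle was -0.73 ± 0.19 (0.0166) and did not pass without nicotine library 2 (0.0592), nicotine library 4 (0.0588) or vehicle library 3 (0.0689). Kcnc4, a fast voltage-gated pore, had 0.310, 0.214, 0.415 and 0.156 CPM in nicotine, 0.412, 0.920, 0.498 and 1.13 CPM in vehicle, and 0.206, 0.120, 0.379 and 0.249 CPM in air. Vehicle stood above air without overlap at 2 to 26 counts per library over the series. It changed by 1.60 ± 0.45 for vehicle over air (adjusted p = 0.0216) and -1.40 ± 0.46 for nicotine over vehicle (0.0456). The first call was lost without any of air libraries 2 and 5 or vehicle libraries 2 and 4 (0.052 to 0.0714), and the second without any of nicotine libraries 1, 2 and 4 or vehicle libraries 2 and 4 (0.0612 to 0.135). DESeq2 gave Kcnc4 no adjusted p.

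Kcnj12 had the lowest log2 change for vehicle over air of the 9 inward rectifiers. This pore of the resting potassium current had 23.2, 24.2, 28.0 and 30.1 CPM in nicotine, 20.4, 15.5, 15.1 and 20.5 CPM in vehicle, and 24.3, 35.8, 26.8 and 29.3 CPM in air. Vehicle stood below both others in every library, at 0.617-fold of air (log2 -0.70 ± 0.13, adjusted p = 0.00237), and nicotine was 0.54 ± 0.13 above vehicle (0.0102). Kcnj2, the other main pore of that current, had 27.2, 23.2, 34.3 and 25.6 CPM in nicotine, 23.3, 25.0, 26.7 and 24.7 CPM in vehicle, and 24.6, 30.7, 29.2 and 27.7 CPM in air. The 3 groups overlapped, and vehicle over air was -0.17 ± 0.11 (0.289).

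Of the ATP-sensitive channel, the cardiac pore moved and the vascular pore did not pass. Kcnj11 had 206, 195, 196 and 200.1 CPM in nicotine, 161, 147, 157 and 173 CPM in vehicle, and 202, 231, 183 and 199 CPM in air. Vehicle lay below both others in every library, with -0.35 ± 0.07 over air (adjusted p = 0.00327) and 0.31 ± 0.07 for nicotine over vehicle (0.00788). Kcnj8, the pore found in vascular smooth muscle and pericytes, had 37.6, 31.6, 43.5 and 32.7 CPM in nicotine, 30.3, 40.9, 44.1 and 58.9 CPM in vehicle, and 29.7, 33.6, 34.3 and 35.8 CPM in air. Its vehicle libraries spread widely and overlapped air (0.39 ± 0.16, 0.129). Smooth muscle and pericyte markers (8 genes) summed to 938 to 994 CPM in nicotine, 928 to 1017 in vehicle and 898 to 1013 in air, and 0 of 8 passed for vehicle over air in edgeR, the lowest unadjusted p being 0.164 for Cnn1. Abcc9, the sulfonylurea receptor that pairs with these pores in heart and vessel, was at -0.44 ± 0.11 for vehicle over air (adjusted p = 0.0123) and 0.52 ± 0.11 for nicotine over vehicle (0.00578).

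The acetylcholine-opened channel changed in 1 of its subunits. Kcnj5 had 57.3, 56.2, 64.8 and 62.0 CPM in nicotine, 52.7, 44.1, 44.4 and 58.8 CPM in vehicle, and 64.4, 81.2, 67.4 and 76.4 CPM in air. All vehicle libraries were below all air libraries (-0.53 ± 0.09, adjusted p = 0.00189), and nicotine lay between and overlapped both (0.25 ± 0.10 over vehicle, 0.0872; -0.28 ± 0.09 over air, 0.559). Its partner Kcnj3 had 36.1, 31.1, 37.1 and 34.1 CPM in nicotine, 38.4, 33.1, 30.3 and 36.1 CPM in vehicle, and 34.2, 42.9, 37.9 and 42.6 CPM in air. The groups overlapped (vehicle over air -0.19 ± 0.09, 0.161). Of the exonic bases of Kcnj3, 31.1% are shared with a gene on the opposite strand, so with no strand setting given its counts may hold reads of that gene.

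Of the leak channels, Kcnk3 had 441, 383, 398 and 416 CPM in nicotine, 323, 316, 304 and 324 CPM in vehicle, and 392, 508, 413 and 373 CPM in air. Vehicle was below both others without overlap, and its 4 libraries lay closer together than those of either other group. The changes were -0.41 ± 0.08 for vehicle over air (adjusted p = 0.00268) and 0.36 ± 0.08 for nicotine over vehicle (0.00645). Kcnk2 had 6.5, 6.7, 6.7 and 8.32 CPM in nicotine, 8.01, 9.57, 9.28 and 9.26 CPM in vehicle, and 8.98, 8.37, 8.78 and 9.08 CPM in air. Here nicotine was the lower group, 3 of its libraries under all others and library 4 overlapping vehicle only, with -0.37 ± 0.11 over vehicle (0.0317) and -0.33 ± 0.11 over air (0.559). The call of Kcnk2 was lost without any of nicotine libraries 1, 2 and 3 or vehicle libraries 2, 3 and 4 (0.064 to 0.0946), and 12.2% of its exonic bases lie under a gene on the other strand (5.76% for Kcnk3). Kcnn2, a small-conductance channel opened by calcium, had 7.27, 7.34, 6.57 and 7 CPM in nicotine, 9.36, 6.32, 6.48 and 6.57 CPM in vehicle, and 8.16, 9.26, 9.53 and 12.1 CPM in air. Vehicle library 1 stood with air and the other 7 exposed libraries below it. Vehicle over air was -0.44 ± 0.14 (0.0439), a call lost without any of air libraries 2, 4 and 5 or vehicle libraries 2, 3 and 4 (0.0604 to 0.181), and nicotine over air was -0.49 ± 0.15 (0.429).

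Genes described here beyond the 22 and the lists, such as Kcng2, Kcnv2 and Kcnc1, were picked after their values were seen. For vehicle over air in the 3-month start the largest differences beyond the 22 genes were in Kcnip1 at 0.91 ± 0.36 (adjusted p = 0.0947), an auxiliary subunit, and Kcnh7 at -0.89 ± 0.39 (0.125), a relative of Kcnh2, both under 2 CPM in each of the 8 libraries. Kcnc1, another fast voltage-gated pore, had 7.66, 9.27, 7.95 and 8.86 CPM in nicotine, 3.12, 8.71, 8.23 and 9.45 CPM in vehicle, and 5.07, 4.66, 3.54 and 7.03 CPM in air. Its nicotine libraries lay above all air libraries (0.72 ± 0.28, 0.743).

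Among partners of the channels, the calls went down with vehicle and up with nicotine over vehicle. Of 30 tested genes of a list of 32 accessory, anchoring and regulatory genes, 9 fell and 0 rose for vehicle over air, where 10.6% of all genes fell and 6.77% rose, with a median log2 change of -0.21 against 0.02 over all genes. Those that fell were Abcc9, Akap9 (-0.47), which anchors protein kinase A to Kcnq1, Ank2 (-0.51), a membrane adaptor, Bves (-0.26), a cyclic AMP-binding protein that interacts with Kcnk2, the kinase Camk2d (-0.34), the scaffold Dlg1 (-0.34), the cardiac transcription factors Gata4 (-0.33) and Mef2a (-0.39), and Tmem65 (-0.34), a protein of the intercalated disc. For nicotine over vehicle, 10 of 30 rose and 0 fell, where 9.7% of all genes rose and 5.5% fell. Those that rose were Abcc9 (0.52), Akap9 (0.35), Bves (0.29), Camk2d (0.35), Dlg1 (0.30), Gata4 (0.28), Mef2a (0.32), Nfatc3 (0.36), Popdc3 (0.38) and Tmem65 (0.32). For nicotine over air 0 of 30 passed in edgeR, with Popdc3 at an unadjusted p of 0.0024 and an adjusted p of 0.356.

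Some values of other cells and of the libraries moved with these groups, and their part in the results was not tested. The 7 atrial cardiomyocyte markers summed to 169 to 220 CPM in nicotine, 166 to 236 in vehicle and 126 to 322 in air. Of them Stard10 rose with vehicle over air, and Sln was at 2.40, 1.07, 1.31 and 0 CPM in nicotine, 0, 0, 0 and 0.438 CPM in vehicle, and 0.411, 2.39, 3.66 and 12.4 CPM in air, and it passed for vehicle over air (adjusted p = 0.0282). Myl7 was highest in air libraries 4 and 5, at 14.3 and 40.5 CPM. Without these 2 air libraries, a choice made after seeing the data, 12 family genes were lower in vehicle and 2 higher. Of all 15500 genes, 828 were then lower and 428 higher, against 1638 and 1050 with all libraries. The calls of Kcna7 (adjusted p = 0.0703), Kcnd3 (0.0591) and Kcnn2 (0.361) were then lost, that of Kcng2 was gained, and Kcnh2 did not pass for nicotine over air (0.351). Neuron and Schwann cell markers (11 genes, Chat at 0 in all 12 libraries) summed to 35.6 to 39.9 CPM in nicotine, 40.1 to 46.6 in vehicle and 33.9 to 40.0 in air, and Stmn2 rose with vehicle over air. Macrophage markers (6 genes) summed to 129 to 140 CPM in nicotine, 131 to 172 in vehicle and 125 to 137 in air, and C1qa and C1qb rose with vehicle over air. For nicotine over vehicle, C1qa fell. Endothelial markers (6 genes) summed to 969 to 1091 CPM in nicotine, 880 to 1041.5 in vehicle and 819 to 966 in air. Of these, Emcn rose with vehicle over air and fell with nicotine over vehicle. Erythroid markers (6 genes) summed to 407 to 552 CPM in nicotine, 660 to 892 in vehicle and 304 to 721 in air, and T and NK cell markers (6 genes) to 1.01 to 2.21 CPM in nicotine, 1.93 to 3.18 in vehicle and 1.37 to 2.02 in air, with no tested gene of either list past the threshold for vehicle over air in edgeR (Cd3e alone had an unadjusted p under 0.05, at 0.0464). The share of counts outside protein-coding genes was 1.29 to 1.39% in nicotine, 1.57 to 1.745% in vehicle and 1.32 to 1.54% in air, with vehicle above both others in every library. Of 7 ventricular cardiomyocyte markers, all at high level (summed 78385 to 86215 CPM in nicotine, 73834 to 79009 in vehicle and 78487 to 88200 in air), Ryr2, Myh6 and Actc1 fell and Myl2 and Tnni3 rose with vehicle.

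The share of long transcripts also moved with the groups. The rank correlation, across genes, of a library's deviation from the mean level with exonic length was 0.0011, 0.1932, 0.3242 and 0.2286 in nicotine, -0.1113, -0.2444, -0.1385 and -0.1903 in vehicle, and 0.1494, 0.2022, 0.0902 and 0.3051 in air. The 13 lower genes had a median exonic length of 4.685 kb and the other 40 family genes 4.888 kb. With a length offset per library in the fit, 12 family genes were lower and 3 higher for vehicle over air. Of all 15468 genes tested with the offset, 1229 were lower and 824 higher. Kcnn2 (adjusted p = 0.108) then did not pass, and Kcng2 and Kcnt1 did. For nicotine over vehicle the offset left 5 of the family higher and 2 lower, where 1078 of all genes were higher and 561 lower. The calls of Hcn4 (0.43, adjusted p = 0.0522) and Kcnc4 (-1.39, 0.0582) were lost there, and Kcnip2 passed (0.21, 0.0344).

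In the 3-week start no family gene passed any of the 3 comparisons, where 0% of all genes did by edgeR. Counting unadjusted p under 0.05, there were 6 family genes and 1177 of all genes for nicotine over air, 4 and 1176 for nicotine over vehicle, and 9 and 3384 for vehicle over air. DESeq2 called 0 family genes in each. Over all genes it called 15 higher and 85 lower for nicotine over air, and 9 and 5 for nicotine over vehicle. For vehicle over air it called 175 higher and 62 lower. The libraries of this start spread more, with a common coefficient of variation of 0.2357 against 0.1057 in the 3-month start, and vehicle library 4 stood apart from vehicle libraries 1 and 2.

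Kcnj12 had 13.6, 26.2, 13.8 and 30.4 CPM in nicotine libraries 2, 3, 5 and 6, 9.10, 8.87 and 24.8 CPM in vehicle libraries 1, 2 and 4, and 35.1, 17.0, 21.4 and 29.1 CPM in air libraries 1, 2, 4 and 5. Nicotine libraries 2 and 5 and vehicle libraries 1 and 2 were low, and the groups overlapped. The same libraries were low in Kcnj5, at 53.1, 89.6, 47.1 and 85.5 CPM in nicotine, 38.1, 28.7 and 80.4 CPM in vehicle, and 77.1, 52.8, 61.9 and 65.1 CPM in air. These 4 libraries were below the other 7 in Kcnj12, and in Kcnj5 air library 2 lay just under nicotine library 2. Kcna7 had 4.50, 10.6, 4.87 and 9.15 CPM in nicotine, 2.64, 2.29 and 7.61 CPM in vehicle, and 10.4, 6.29, 6.87 and 8.58 CPM in air. The low libraries were the same ones in Kcna7. Kcnj11 had 141, 182, 145 and 204 CPM in nicotine, 105, 97.7 and 202 CPM in vehicle, and 217, 156, 161 and 189 CPM in air. In Kcnj11 they were again the lowest 4. They also had the lowest correlations of deviation with exonic length, at -0.346 and -0.296 in nicotine libraries 2 and 5 and -0.2107 and -0.2766 in vehicle libraries 1 and 2, against -0.064 to 0.2667 in the other 7. The atrial marker Myl7 was highest in vehicle library 2 (68.2 CPM) and air library 1 (33.5 CPM). The part of either in the channel values was not tested.

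Kcnk2 did not follow this pattern, nor did Kcnv2 and Kcnh2. Kcnk2 had 8.54, 8.22, 9.66 and 6.31 CPM in nicotine, 11.5, 12.4 and 10.8 CPM in vehicle, and 6.41, 8.23, 8.32 and 7.11 CPM in air. Every vehicle library was above every other library of this start, at 0.62 ± 0.17 over air (adjusted p = 0.202) and with nicotine at -0.50 ± 0.17 over vehicle (0.581). Kcnv2, a silent modifier subunit, had 26.3, 26.7, 31.0 and 37.3 CPM in nicotine, 38.0, 29.5 and 22.6 CPM in vehicle, and 22.7, 22.2, 20.8 and 20.8 CPM in air. Nicotine lay above air in every library without passing (0.49 ± 0.17, 0.457). Kcnh2 had 106, 109, 96.0 and 121 CPM in nicotine, 106, 69.0 and 98.3 CPM in vehicle, and 133, 100.4, 121 and 102 CPM in air. Its groups overlapped, at -0.08 ± 0.15 for nicotine over air (0.95) and -0.33 ± 0.17 for vehicle over air (0.256). In the authors' deposited table for nicotine against air in this start, 0 of the 48 family genes listed had an adjusted p under 0.05 (0.9706% of all genes did).

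Without vehicle library 4, which left vehicle libraries 1 and 2 only, the outcome changed. Without vehicle library 1 or vehicle library 2 instead, 0 of all genes passed for vehicle over air or nicotine over vehicle. For vehicle over air without library 4, 6 of the 53 family genes were higher (among them Kcna2, Kcnip3, Kcnk2, Kcnt2 and Kcnv2). Another 6 were lower (among them Kcna7, Kcnj11, Kcnj12, Kcnj5 and Kcnq1). Of all genes 13.8% were higher and 11.2% lower, shares near those of the family. For nicotine over vehicle without library 4, 4 family genes were higher (among them Kcna7, Kcnj11 and Kcnj5) and 0 lower. Of all genes 2.65% were higher, 3.9% lower and 6.55% either. With all 23 libraries in 1 fit, 3 family genes were higher (Kcnk2, Kcnt2 and Kcnv2) and 2 lower (Kcna1 among them) for vehicle over air. Of all genes 9.27% and 6.92% were (16.2% either). For nicotine over air 0 of the family passed in that fit, where 0.0903% of all genes were higher and 0.813% changed in either direction.

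**Figure D4:**
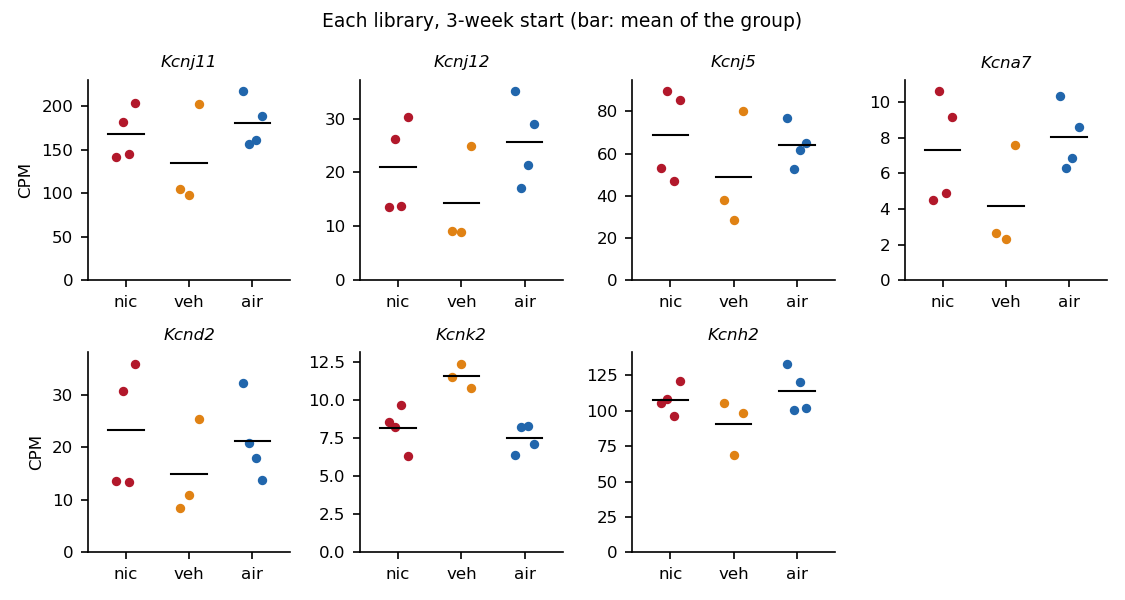
CPM of each 3-week library for 7 family genes in nicotine (nic), vehicle (veh) and air; points are libraries and the bar is the group mean. In Kcnj11, Kcnj12, Kcnj5 and Kcna7 a pair of nicotine and a pair of vehicle libraries sit low and vehicle library 4 sits with air, whereas Kcnk2 is highest in all 3 vehicle libraries.

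Between the starting ages, no family gene passed in a fit of all 23 libraries. The effect of nicotine over air, 3-month minus 3-week start, was called in 0 of 53 (0.135% of all genes, 0.0323% with a lower effect in the 3-month start, 9 family genes at an unadjusted p under 0.05). The lowest adjusted p in the family was that of Kcnn2, at -0.92 ± 0.25 (edgeR adjusted p = 0.13), which DESeq2 called, while Kcnh2 was at -0.41 ± 0.17 (0.39). A call of Kcnh2 in the older start only is therefore not shown as a difference between the ages. The effect of vehicle over air was called in 0 of 53 (0% of all genes, 7 family genes and 1861 of all at an unadjusted p under 0.05; DESeq2 called 0 of the family), with Kcne4 at 1.30 ± 0.39 (0.218) and Kcnk2 at -0.59 ± 0.18 (0.234). Without 3-week vehicle library 4, Kcnk2 (-0.63, 0.046) and Kcnv2 (-0.73, 0.0277) passed, both with the lower vehicle effect in the 3-month start, where 4.3% of all genes passed in that direction. Between 3-month and 3-week air, 0 of 53 passed (0.00645% of all genes, 11 family genes at an unadjusted p under 0.05; DESeq2 called 0 of the family), with Kcnn2 at 8.16, 9.26, 9.53 and 12.1 CPM in the 3-month and 7.09, 7.08, 7.77 and 5.50 CPM in the 3-week libraries. These did not overlap (0.51 ± 0.17, 0.331), and 8.13% of the exonic bases of Kcnn2 are shared with genes on the opposite strand.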

How the data were processed

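Gene counts for all 23 libraries were deposited by the authors, made with STAR 2.5.2b, Trimmomatic 0.36, DESeq2 and featureCounts (Subread 1.5.2), as the submitters' processing notes list them without roles. Which genome build, annotation and strand setting gave the counts is not given in the sources used here. The authors also deposited, for nicotine against air at each starting age, log2 fold changes, p-values and adjusted p-values, and a signal per library that equals the count divided by 1 factor per library. That signal served only to check columns.

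CPM were computed with TMM factors over all 23 libraries. Exonic lengths were from GENCODE vM21, which matched all 53 genes of the family by ID and 48970 of 49315 genes. Genes were filtered with filterByExpr (minimum count 10), which left 15500, and tested with edgeR 4.0.16 (robust quasi-likelihood, Benjamini-Hochberg adjustment, threshold 0.05) in R 4.3.3. Each starting age was fitted alone, since the spread differed between them, and contrasts between ages used all 23 libraries. Alternatives were RLE scaling, no filter, DESeq2 1.42.0, 1 fit of all libraries, only the 2 groups compared, a length offset (lowess span 0.3), a replicate block, voom of limma 3.58.1, and leaving libraries out. The fitting code was tested on simulated counts.

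Members and lists were chosen with earlier results of these data known. The genes described one by one are those past the threshold in any comparison within a starting age, plus 19 core genes, except that the values of some genes are not reported here. No libraries of the same group were duplicates of each other (chi-square per gene 4.67 to 114.17), and libraries of different groups were not checked this way. Promoters are from RefSeq.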

Additional observations from a re-analysis of the deposited data

Results flagged for a closer look

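In 110 checks of 22 genes in 5 groups of 4 libraries, 4 values stood apart from the rest of their group, where chance gives about 5% of checks. Kcnd2 (20.5 CPM, others 25.1 to 25.3) and Kcnd3 (11.3 CPM, others 15.8 to 15.9), the pores of the fast transient outward current, were both low in 3-month nicotine library 2. Kcnk2, a leak channel, was at 8.32 CPM in 3-month nicotine library 4, against 6.5 to 6.7 CPM in the others. Kcnn2, a calcium-activated channel, was at 9.36 CPM in 3-month vehicle library 1, against 6.32 to 6.57 CPM in the others.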

How the results depend on the processing

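With all 23 libraries in 1 fit, 0 family genes passed in each comparison of the 3-month start in edgeR, where 0% of all genes did. For vehicle over air in the 3-week start 5 family genes passed, where 16.2% of all genes did. For nicotine over air in the 3-month start, 0 passed with only these 2 groups fitted, with air libraries 4 and 5 left out (chosen after seeing the data), or with the replicate block. Libraries of the same replicate number had correlations of -0.3705 to 0.2827 over the 6 comparisons, within the -0.5929 to 0.5609 of other numbers. With only 1 to 4 shared numbers in a comparison, these values cannot exclude that the samples were paired. With the replicate block, 9 passed for vehicle over air in the 3-month start, where 340 of all genes were higher and 561 lower. For nicotine over vehicle 4 passed, where 1146 of all genes were higher and 578 lower. The calls of Hcn2, Hcn4 and Kcnc4 were lost in both comparisons. Those of Kcna7, Kcnd3 and Kcnn2 were lost for vehicle over air, and that of Kcnk2 for nicotine over vehicle. DESeq2 called 1 family gene for the difference of nicotine effects between ages, where it called 185 of all genes higher and 28 lower. Without 3-week air libraries 1 and 5, 3 family genes were lower in 3-month than in 3-week air. Of all 15500 genes, 579 were then lower and 277 higher.

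With 1 library left out at a time, the 3-month start gave 0 to 1 family genes for nicotine over air, 4 to 10 for nicotine over vehicle and 12 to 20 for vehicle over air. Of all genes, 0 to 13, 907 to 1712 and 540 to 1217 were then higher, in the same order. Those lower numbered 0 to 4, 333 to 1100 and 944 to 1815. The 3-week start gave 0 to 0, 0 to 4 and 0 to 12 family genes in the same order. Its family calls all came without vehicle library 4, where 6.55% of all genes passed for nicotine over vehicle and 25% for vehicle over air. Between ages there were 0 to 0 family genes for air, 0 to 2 for the vehicle effect and 0 to 0 for the nicotine effect. The 2 also came without that library, where 8.71% of all genes passed. Over 24 single-gene calls and 374 alternative values, none changed direction, 285 stayed past the threshold and 89 did not, 24 of them with all libraries in 1 fit and 40 with 1 library left out. Of the 24, 15 passed without any single library. The first 6 genes held 70.3% of the family's CPM undivided by length and 74.4% per kb.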
